A study of Anser cygnoides with 4 samples.

Results

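The genes described here are the nuclear-encoded subunits of the oxidative phosphorylation machinery in single cells of embryonic goose (Anser cygnoides) leg muscle. All symbols that start with NDUFA, NDUFB, NDUFC, NDUFS, NDUFV, SDHA to SDHD, UQCR, COX4 to COX8 or ATP5 were taken, and the assembly factors NDUFAF and SDHAF and the inhibitor ATP5IF1 were left out. This rule uses names alone and found 80 genes of 25487 in the count matrices. Complex I had 37 of them, complex II 4, complex III 8, complex IV 14 and complex V 17, with NDUFA4 and NDUFA4L2 counted under complex IV.

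Cells came from leg muscle of female Zhedong White goose embryos, untreated, on day 13, 15, 18 or 23 of incubation. Each stage, written E13, E15, E18 or E23, has 1 droplet library of 3′ transcript ends. Each library pooled several embryos (3 per the labels and 4 per the methods), which cannot be told apart in the counts. The muscle was digested with Dispase II and Collagenase II, plated on plastic to remove fibroblasts and frozen, so the cells are a thawed suspension enriched for skeletal muscle satellite cells (SMSCs) and not whole muscle.

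Oxidative phosphorylation passes electrons from NADH and succinate through complexes I to IV of the inner mitochondrial membrane to oxygen. The proton gradient built by complexes I, III and IV drives complex V, the ATP synthase. A few core subunits are encoded in mitochondrial DNA and the rest in the nucleus, so that both genomes have to supply each complex except the wholly nuclear complex II. Mature muscle fibres depend on this system, and in mammals some complex IV subunits have a form typical of heart and skeletal muscle.

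Cells were sorted by counts of unique molecular identifiers (UMIs) of genes outside the set. PAX7 cells held at least 2 UMIs of PAX7, the satellite cell transcription factor, and none of MYOG. Early and late MYOG cells held at least 2 UMIs of MYOG, the factor of terminal differentiation, with fewer than 10 UMIs of the embryonic actin gene ACTC1 in early cells and at least 10 in late cells. The MYOG gates did not exclude PAX7. At E13, E15, E18 and E23, 441, 1900, 831 and 558 cells held at least 2 UMIs of both PAX7 and MYOG and counted as MYOG cells. Fibro-adipogenic progenitors (FAPs) held at least 5 UMIs each of DCN and COL6A3 and none of PAX7 or MYOG. In the order E13, E15, E18 and E23, late MYOG cells numbered 1946, 3887, 2038 and 802, early MYOG cells 1063, 1455, 954 and 524, FAPs 1819, 576, 1396 and 1293, and PAX7 cells 2620, 2497, 2846 and 3889.

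Of 11261 to 16077 barcodes per library, 9960 to 13831 were retained, with median depths of 7922 to 10603.5 UMIs, and 27 to 56 barcodes were shared by each pair of libraries. UMIs were summed per class and library, giving 16 sums of 3890287 to 48584056 UMIs, and levels are given as CPM (the UMIs of a gene relative to all UMIs of its sum, where 10000 CPM is 1%). Marker genes were read as a partial check of the gates. The satellite, myocyte and FAP lists include the gate genes (PAX7, MYOG, ACTC1, DCN and COL6A3), so their sums are partly fixed by the gates. Summed satellite markers averaged 1416 CPM in late MYOG cells, 2637 in early MYOG cells, 70.1 in FAPs and 2497 in PAX7 cells, and summed myocyte markers averaged 17757, 2303, 1846 and 962 CPM in the same order. FAP markers averaged 161, 596, 5929 and 1040 CPM in that order, so these markers were not absent from PAX7 cells. Endothelial markers reached at most 16.2 CPM, immune markers 38.7, Schwann markers 19.8 and cartilage markers 109.5 CPM in any sum, and no red cell marker of the list was in the files. Schwann markers, at 8.17 to 19.3 CPM in late MYOG cells and 0.12 to 1.14 CPM in PAX7 cells, moved with the MYOG gate, and the part of other cells in the results was not tested.

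Nearly all of the genes were abundantly measured. On the scale of mean CPM over the 16 sums, in which a 3′ UMI stands for 1 captured transcript whatever its length, 67 of the 80 genes were above 100 CPM and 6 were below 20 CPM. The highest was ATP5MC3, 1 of 3 genes for the c subunit of the ATP synthase rotor ring, at 2052 CPM. It was followed by UQCRH, the hinge subunit of complex III, at 1249 CPM, NDUFA4 at 1011 CPM and COX5B at 937 CPM. NDUFB4, a membrane-arm subunit, led complex I at 679 CPM, and SDHB, the iron-sulfur subunit, led complex II. The 6 most abundant genes held 26.7% of the summed level. At the low end stood COX7A1 at 6.75 CPM, NDUFB11 at 3.28 CPM, NDUFA4L2 at 0.97 CPM and COX6A2 at 0.87 CPM. NDUFA3 reached 1 count at most and UQCR11 had none in any sum, so 78 genes could be tested.

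Added together, the 80 genes made up a rather constant share of the transcripts of every class. In late MYOG cells they summed to 26044, 29209, 31369 and 20698 CPM, from the earliest stage to the latest. The early MYOG cells had 24726, 26194, 30089 and 19716 CPM at the same stages, and the FAPs 24512, 23479, 26967 and 19827 CPM. PAX7 cells had 23905, 24983, 28894 and 20011 CPM. In each library the late MYOG cells were thus the highest of the 4 classes, while the stages spread the values more widely than the classes did.

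**Figure D1:**
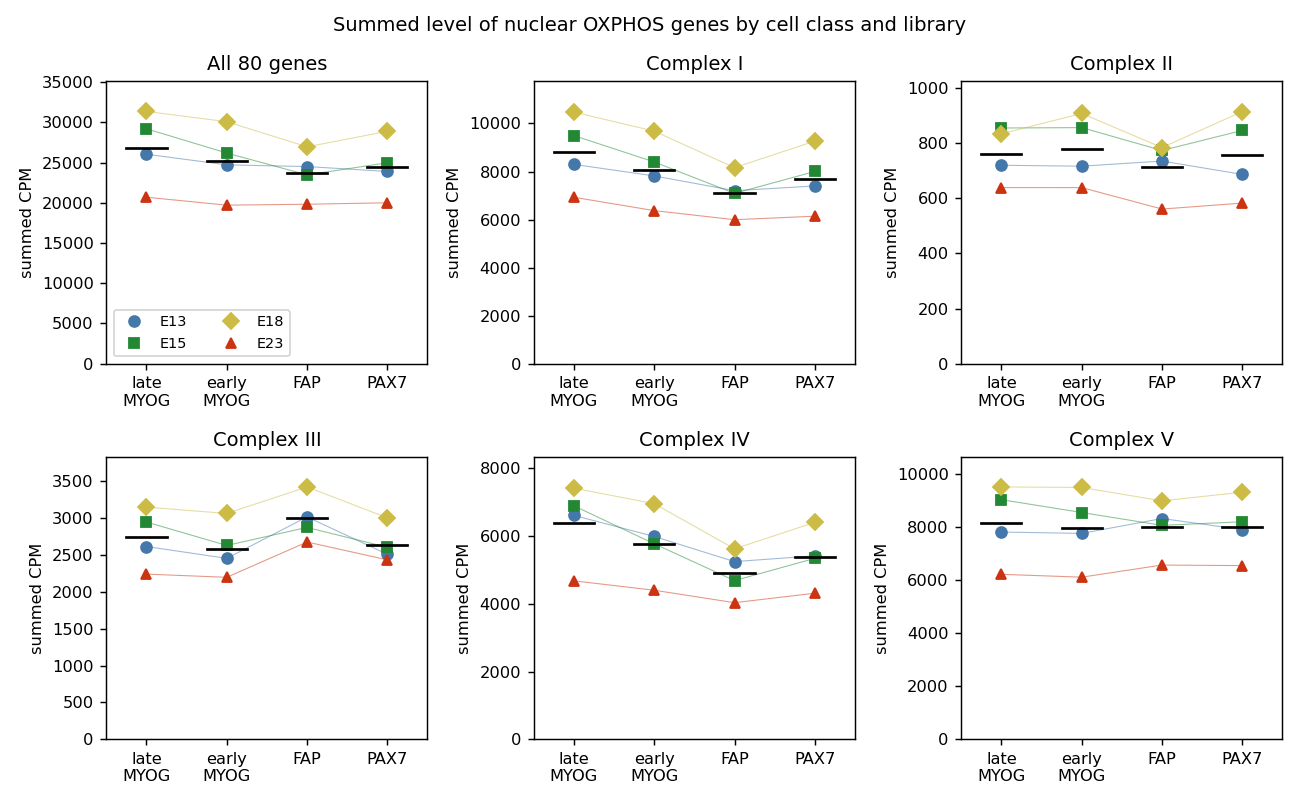
Summed CPM (vertical axes, from 0) of the 80 nuclear-encoded oxidative phosphorylation genes and of each complex in late MYOG cells, early MYOG cells, FAPs and PAX7 cells, with 1 point per library, thin lines joining the points of a library and a black bar at the mean of the 4 libraries. For the 80 genes late MYOG cells ran between 20698 and 31369 CPM and PAX7 cells between 20011 and 28894 CPM, and complex III was highest in FAPs on average.

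The summed level in late MYOG cells over that in PAX7 cells of the same library was 1.089 for E13, 1.169 for E15, 1.086 for E18 and 1.034 for E23, a mean of 1.095 ± 0.056 (SD, n = 4 libraries). Early MYOG cells over PAX7 cells gave 1.027 ± 0.029, with 3 of 4 libraries above 1. FAPs over PAX7 cells gave 0.972 ± 0.044, with 1 of 4 libraries above 1. These ratios are relative to all UMIs of a class, including contractile transcripts, of which 15 of 17 tested genes rose in late MYOG cells. With the scaling factors of edgeR (TMM), which set the bulk of genes to equality, the ratio became 1.224 ± 0.138 for late MYOG cells and 1.071 ± 0.031 for FAPs, so the direction in FAPs depends on the scaling. A smaller number of cells and a lower RNA content per cell do not enter these ratios, which compare shares of UMIs. The ratios therefore do not show the amount of these transcripts per cell.

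The complexes did not contribute equally. Complex IV had the highest mean ratio of late MYOG over PAX7 cells, 1.188, with a range of 1.085 to 1.290 over the libraries. Complex I followed at 1.142 (1.121 to 1.187), and both were above 1 in 4 of 4 libraries. Complex II at 1.017 (0.912 to 1.096), complex III at 1.036 (0.920 to 1.132) and complex V at 1.015 (0.950 to 1.101) lay on both sides of 1. On the TMM scale complexes I, II, IV and V were above 1 in 4 of 4 libraries and complex III in 3.

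The first question was how the set changed along differentiation, from the PAX7 cells to the late MYOG cells. Late MYOG cells had higher levels of subunits of each of the 5 complexes, most of them by a modest amount. By edgeR's quasi-likelihood test with the library as a block and Benjamini-Hochberg adjustment over 15004 genes, 46 of the 78 genes rose and 1 fell at an adjusted p below 0.05, where 25.8% of all genes tested rose and 26.0% fell. The median log2 fold change was 0.24 over the 78 genes and -0.0046 over all genes, and 71 of the 78 were positive. By complex, 22 of 36 rose in complex I, 2 of 4 in complex II, 4 of 7 in complex III, 9 of 14 in complex IV and 9 of 17 in complex V. Of the 46, 35 were higher in 4 of 4 libraries in CPM and 43 on the TMM scale, with NDUFA12, UQCR10 and COX6B1 as the exceptions on that scale. The 46 were called from these same libraries, so this agreement is a description and not a separate check.

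**Figure D2:**
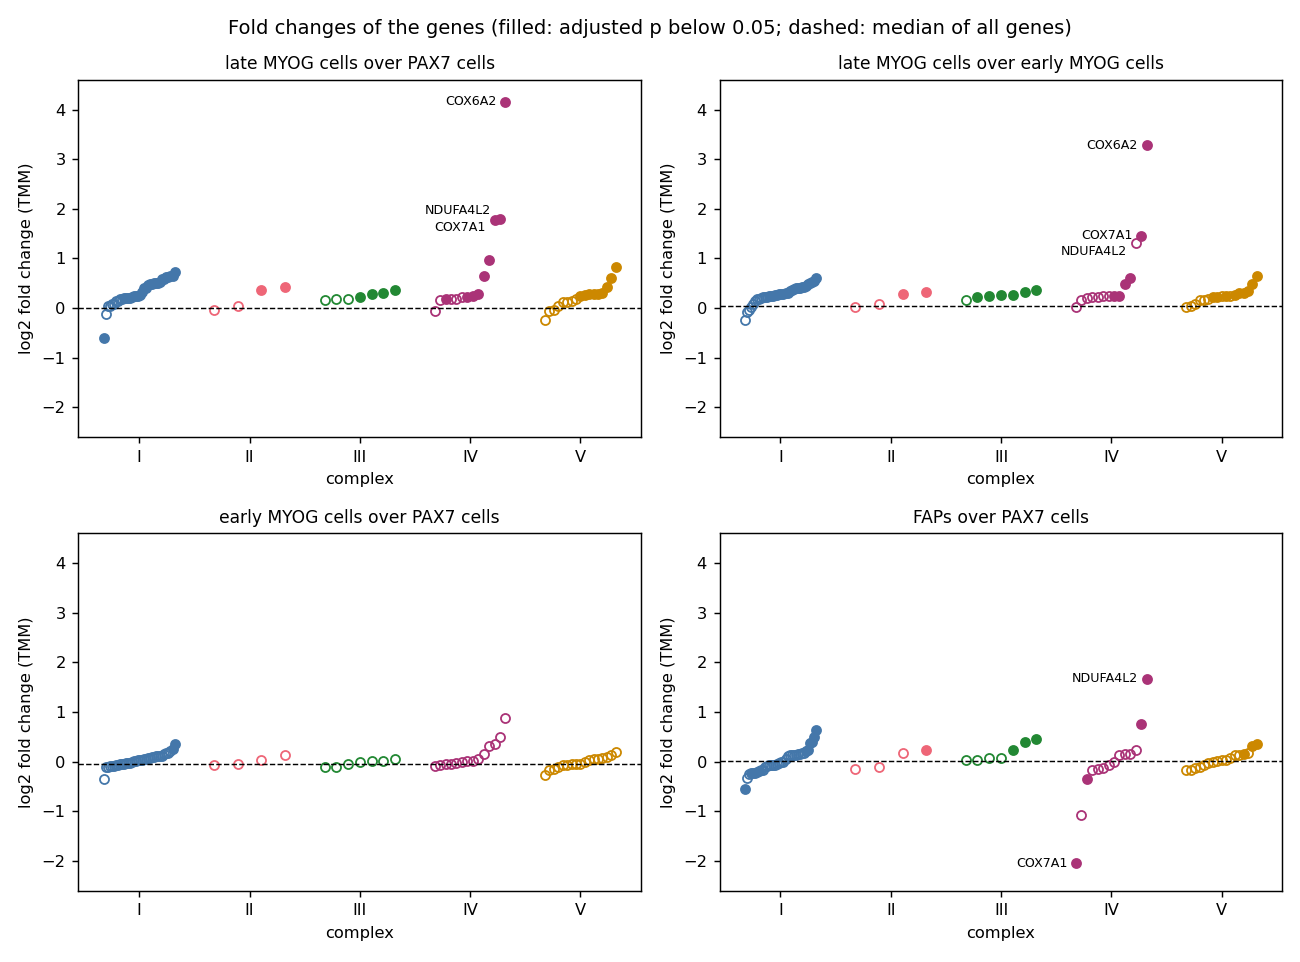
Log2 fold change of each tested gene (vertical axes; edgeR with TMM) in 4 comparisons between classes, by complex (horizontal axes) and in rising order within it, with filled points for an adjusted p below 0.05 and a dashed line at the median of all genes. In late MYOG cells over PAX7 cells 71 of 78 points lie above 0, and in FAPs over PAX7 cells 41 of 78.

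Scaling and libraries set how many of these calls were made. Without TMM, on library totals alone, the median of all genes moved to -0.16, and 27 of the genes were then called higher and 7 lower, beside 19.3% and 33.9% of all genes. Without E15 the higher calls numbered 29, beside 19.4% of all genes, and without E18 28, beside 18.0%.

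Among complex IV subunits, 3 of low abundance had the highest fold changes, namely the muscle-type forms COX6A2 and COX7A1 and the NDUFA4 relative NDUFA4L2. COX6A2, which in mammals is the heart and skeletal muscle form of subunit 6A, had 108, 53, 20 and 15 UMIs at E13, E15, E18 and E23 in late MYOG cells, against 12, 1, 3 and 5 UMIs in PAX7 cells. As CPM these are 6.97, 1.31, 1.07 and 2.45 in late MYOG cells and 0.48, 0.038, 0.092 and 0.10 in PAX7 cells. The groups did not overlap, and the log2 fold change was 4.15 ± 0.38 (SE; edgeR adjusted p = 6.19e-06). Counts were few in every class, and the gene passed the low-count filter through the late MYOG sums, where it is high, so that the test describes a gene admitted by that class (log2 fold change 4.12 without the filter). It had 4, 4, 1 and 1 UMIs in early MYOG cells and 5, 1, 1 and 0 in FAPs. The other form, COX6A1, remained the main source of subunit 6A transcripts, since COX6A2 took 0.12% to 1.18% of their sum in late MYOG cells and 0.0055% to 0.081% in PAX7 cells.

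COX7A1, in mammals the muscle form of subunit 7A, behaved in the same direction at a higher level. It had 14.6, 7.60, 19.9 and 16.2 CPM in late MYOG cells, 7.07, 2.01, 8.42 and 8.74 CPM in early MYOG cells and 5.95, 2.51, 6.89 and 3.87 CPM in PAX7 cells. Late MYOG cells were above PAX7 cells in every library and their ranges did not overlap, with a log2 fold change of 1.78 ± 0.32 (edgeR adjusted p = 0.000601). COX7A1 took 1.01% to 3.62% of the COX7A1 and COX7A2 transcripts in late MYOG cells, against 0.39% to 0.95% in PAX7 cells. NDUFA4L2, a relative of NDUFA4 that hypoxia induces in mammalian cells, had 32, 58, 31 and 1 UMIs in late MYOG cells and 6, 17, 19 and 8 in PAX7 cells. Its log2 fold change of 1.80 ± 0.60 (adjusted p = 0.0251) was not shared by E23, where late MYOG and PAX7 cells both had 0.16 CPM, and the call was lost without E13 (adjusted p = 0.142), without E18 (adjusted p = 0.0937) or with cycling cells left out (adjusted p = 0.128). Counts of NDUFA4L2 were few in every class, and sums where it is high, in late MYOG cells and FAPs, helped it pass the low-count filter.

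COX5B had the largest change among abundant subunits. This zinc-binding subunit of complex IV stood at 1528, 1416, 1550 and 743 CPM in late MYOG cells, at 1002, 960, 1270 and 644 CPM in early MYOG cells and at 675, 745, 975 and 558 CPM in PAX7 cells. Late MYOG cells were the highest of these 3 classes in each library, while the E23 value of late MYOG cells fell within the range of the PAX7 cells. Its log2 fold change over PAX7 cells was 0.96 ± 0.12 (edgeR adjusted p = 4.81e-05). NDUFA4, a small subunit long counted with complex I, had 1347, 1476, 1564 and 947 CPM in late MYOG cells and 965, 937, 1111 and 777 CPM in PAX7 cells, and rose by 0.64 ± 0.09 (adjusted p = 0.000141). By contrast COX4I1, the regulatory nuclear subunit, was at 289, 362, 405 and 273 CPM in late MYOG cells and 290, 345, 424 and 250 CPM in PAX7 cells and did not pass the test.

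In the ATP synthase, subunits of the catalytic head moved unequally, and so did the genes for the c subunit of the rotor ring. ATP5F1A, the alpha subunit of the head, had 400, 513, 462 and 506 CPM in late MYOG cells, against 263, 306, 276 and 333 CPM in PAX7 cells. All late values lay above all PAX7 values, with a log2 fold change of 0.84 ± 0.09 (edgeR adjusted p = 1.7e-05). ATP5F1B, its catalytic partner beta, named here after its values were seen, had 290, 490, 492 and 308 CPM in late MYOG cells and 323, 541, 568 and 369 CPM in PAX7 cells, and was not called. Of the 3 genes that encode the same mature c subunit in mammals, ATP5MC2 rose by 0.42 ± 0.07 and ATP5MC1 by 0.28 ± 0.09 (adjusted p = 0.000427 and 0.0193), while ATP5MC3 had a value of -0.07 (adjusted p = 0.552). The ATP5MC1 call was lost without E13, E15 or E18 (adjusted p = 0.0829, 0.123 and 0.137) and on library totals (log2 fold change 0.13), where ATP5MC3 in turn was called lower at -0.22 (adjusted p = 0.0139). ATP5MC3 thus made up 69.4% to 71.5% of the c subunit transcripts in late MYOG cells and 74.03% to 77.6% in PAX7 cells, ranges that did not overlap.

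In complex I, accessory subunits led. NDUFA6, at the base of the matrix arm, had 256, 236, 263 and 164 CPM in late MYOG cells and 160, 158, 184 and 114 CPM in PAX7 cells, with a log2 fold change of 0.73 ± 0.10 (edgeR adjusted p = 0.00012). NDUFA1, a small membrane-anchored subunit, rose by 0.63 ± 0.10 (adjusted p = 0.000249), and NDUFB4 and NDUFB10 of the membrane arm by 0.50 each. The 1 gene that fell was NDUFB9, a membrane-arm subunit of the same group. It had 29.1, 37.7, 42.2 and 26.1 CPM in late MYOG cells, against 45.9, 54.8, 73.0 and 53.0 CPM in PAX7 cells, with groups that did not overlap and a log2 fold change of -0.60 ± 0.11 (adjusted p = 0.000785). In complex II, SDHD, a membrane anchor, rose by 0.43 ± 0.08 (adjusted p = 0.000708), whereas the iron-sulfur subunit SDHB had 280, 313, 327 and 191 CPM in late MYOG cells and 292, 356, 436 and 210 CPM in PAX7 cells. In complex III the abundant UQCRH had a log2 fold change of 0.16 (adjusted p = 0.158). Of the called genes that are not named, those in complex I rose by 0.24 to 0.65 on the log2 scale. The other called gene of complex II rose by 0.35, the 3 in complex III by 0.28 to 0.36 and the 6 in complex V by 0.23 to 0.60.

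**Figure D3:**
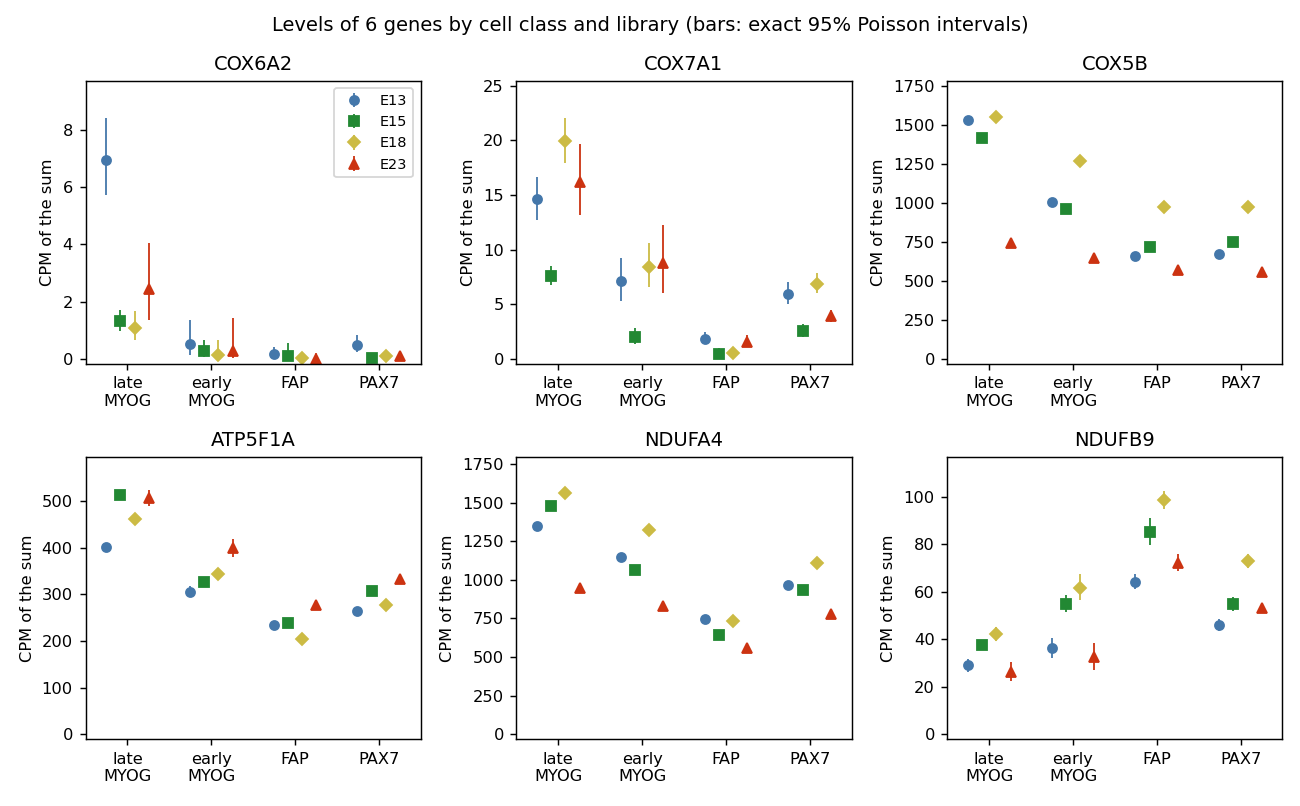
CPM (vertical axes) of 6 subunits in late MYOG cells, early MYOG cells, FAPs and PAX7 cells, with 1 point per library and exact Poisson intervals at 95% as bars. COX6A2, COX7A1 and ATP5F1A have all late MYOG values above all PAX7 values, while NDUFB9 has all late values below them and its highest mean in FAPs.

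The path was then divided at 10 ACTC1 UMIs, and at full depth its second part gave many more calls than its first. Late over early MYOG cells gave 45 genes that rose and 0 that fell (edgeR; at an unadjusted p below 0.05 61 of 78 differed, beside 6048 of all 15004 genes, and DESeq2 called 1 lower), where 16% of all genes rose and 12.7% fell. The median was 0.25 against 0.03 over all genes, and of the 45, 31 were higher in 4 of 4 libraries in CPM and 45 on the TMM scale. Here too the genes were called from the same libraries, so the agreement is not a separate check. COX6A2 rose by 3.28 ± 0.43 (adjusted p = 0.000404), COX7A1 by 1.46 ± 0.33 (adjusted p = 0.00649), ATP5F1A by 0.64 ± 0.09 (adjusted p = 0.000496) and COX5B by 0.61 ± 0.12 (adjusted p = 0.00302). The limit given above for COX6A2, which passed the low-count filter through the late MYOG sums, holds here too, and its UMIs in early MYOG cells were few. On library totals alone 16 rose and 3 fell, beside 9.39% and 21.7% of all genes. Without E13, E15 or E18 the higher calls numbered 24, 15 or 14, beside 10.4%, 6.41% or 6.78% of all genes; COX7A1 was not called without E15 (adjusted p = 0.0762).

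Early MYOG cells over PAX7 cells gave 2 genes that rose and 0 that fell, where 7.46% of all genes rose and 9.48% fell (edgeR; 7 of 78 had an unadjusted p below 0.05, beside 4693 of all 15004 genes, and DESeq2 called 6 higher and 1 lower). These were NDUFA6 with a log2 fold change of 0.36 ± 0.10 (adjusted p = 0.033) and NDUFB10 with 0.26 ± 0.07 (adjusted p = 0.0332). COX5B had 0.35 (adjusted p = 0.0616) and NDUFB9 -0.35 (adjusted p = 0.0509), so both pointed the way they took in late MYOG cells. The median over the 78 genes was 0.02. The early MYOG gate did not require that PAX7 be absent, so this step does not set cells with PAX7 against cells without it. Neither higher call was made without E13, E15 or E18. The late and early comparisons share the PAX7 sums, and the 2 steps were not tested against each other.

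Within the MYOG gate the summed level was also read in 6 bins of ACTC1 UMIs, as a description. At E15 it was 25812 CPM in cells without ACTC1 UMIs and 29677 CPM in cells with at least 100. At E13 the same bins had 24653 and 26730 CPM, and at E18 29815 and 31244 CPM. At E23 they had 19930 and 24953 CPM, with 19 cells in the upper bin. In each library the cells richest in ACTC1 thus held more of these transcripts per UMI than the cells without it, but the bins between did not rise evenly. At E18 the bin of 30 to 99 UMIs was the highest, at 31719 CPM, and at E23 the bins of 1 to 2 and 3 to 9 UMIs, at 19396 and 19735 CPM, lay below the cells without ACTC1. Depth moved with the bins, with median totals of 10089, 11608, 10254 and 8602 UMIs in the richest cells from E13 to E23, against 6464.5, 9203.5, 8045 and 7454 UMIs in the cells without ACTC1, and its part in the result was not tested.

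FAPs, the connective tissue lineage of the suspension, were set against the same PAX7 sums. Their differences went in both directions. Of the 78 genes 15 rose and 8 fell (edgeR), beside 22.2% and 21.2% of all genes, and the median was 0.03 against 0.01 over all genes. The higher calls stood near the share of all genes and the lower calls below it. These counts, and those by complex, are therefore not read as results about the set. Complex I had 6 in each direction, complex III 3 that rose and 0 that fell, and complex IV 2 in each direction. The summed ratio of complex III was 1.136, above 1 in 4 of 4 libraries (1.099 to 1.202), while those of complexes I and IV were 0.929 and 0.915. On the TMM scale complex III stayed above 1 in 4 of 4 libraries, at 1.251, whereas complexes I and IV turned round to 1.023 and 1.007, each above 1 in 3 of 4 libraries.

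COX7A2L, which in mice and human cells helps join complexes III and IV, had the firmest change. It stood at 238, 273, 325 and 291 CPM in FAPs, against 138, 194, 215 and 190 CPM in PAX7 cells. No FAP value lay within the PAX7 range, and the log2 fold change was 0.76 ± 0.10 (edgeR adjusted p = 8.39e-05). NDUFB9, which fell in late MYOG cells, had 64.2, 85.2, 98.4 and 72.2 CPM in FAPs and was 0.63 ± 0.11 higher than in PAX7 cells (adjusted p = 0.000687). NDUFS3, a core subunit of the matrix arm, rose by 0.50 ± 0.09 (adjusted p = 0.000812), UQCRH by 0.46 ± 0.09 (adjusted p = 0.00138) and ATP5MC3 by 0.36 ± 0.09 (adjusted p = 0.00583). The ATP5MC3 call was lost without E13 and with cells thinned to equal depth (adjusted p = 0.0742 after thinning). ATP5MC3 made up 79.2% to 82.1% of c subunit transcripts in FAPs, above its range in PAX7 cells.

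The lowest in FAPs was COX7A1, at 1.84, 0.39, 0.54 and 1.54 CPM against 5.95, 2.51, 6.89 and 3.87 CPM in PAX7 cells. The groups did not overlap, with a log2 fold change of -2.05 ± 0.36 (edgeR adjusted p = 0.000748). NDUFV3, of the NADH-binding module, had 60.9, 48.7, 62.4 and 53.4 CPM in FAPs and 83.9, 81.9, 138.7 and 69.9 CPM in PAX7 cells, and fell by 0.54 ± 0.13 (adjusted p = 0.00433). NDUFA4 fell by 0.36 ± 0.09 (adjusted p = 0.00795), with 745, 643, 732 and 560 CPM in FAPs and 965, 937, 1111 and 777 CPM in PAX7 cells. NDUFB2 of the membrane arm fell by 0.23 ± 0.08 (adjusted p = 0.027). The NDUFB2 call was lost without E13, E15 or E18 (adjusted p up to 0.0943) and that of NDUFA4 without E18 (adjusted p = 0.0501). NDUFA4L2 was called higher at 1.67 ± 0.61 (adjusted p = 0.042), yet its 54, 2, 85 and 9 UMIs in FAPs scattered among the libraries and the call was lost without E13, E18 or E23. The limit given above for its passing of the low-count filter holds here too.

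The counts in FAPs turned on scaling and on depth. On library totals alone 9 of the genes rose and 29 fell, beside 16% and 28.1% of all genes, whose median then moved to -0.13. Without E13 the higher calls numbered 7 (16.2% of all genes), without E15 10 (15.2%), without E18 9 (14.2%) and without E23 9 (20.3%). The lower calls numbered 3 without E15 (15.2% of all genes) and 2 without E18 (15.7%).

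Inside the PAX7 gate, 3 substates were compared: cycling cells with UMIs of at least 2 of 6 mitotic genes, and non-cycling cells with either at least 5 UMIs of MYOD1, the early myogenic factor, or none. The summed level hardly differed. It was 23725, 24897, 28889 and 19830 CPM in cycling cells, 23940, 25500, 29334 and 19984 CPM in MYOD1-high cells and 23929, 24173, 28663 and 20449 CPM in MYOD1-negative cells. The mean ratio to MYOD1-negative cells was 0.9998 ± 0.026 for cycling cells and 1.014 ± 0.033 for MYOD1-high cells (SD, n = 4 libraries).

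Of 76 genes tested in these substates, 1 rose and 4 fell in cycling cells, beside 8.71% and 9.44% of all genes (edgeR). NDUFA6 was the one that rose, with 172, 181, 197 and 117 CPM in cycling cells and 143, 123, 166 and 112 CPM in MYOD1-negative cells, a log2 fold change of 0.27 ± 0.09 (adjusted p = 0.037). SDHD had 204, 265, 263 and 160 CPM in cycling cells and 240, 283, 330 and 188 CPM in MYOD1-negative cells, and fell by 0.23 ± 0.07 (adjusted p = 0.019). NDUFA1, NDUFB7 and COX6A1 fell by 0.23, 0.17 and 0.17. Depth moved with this contrast, with a median of 14040.5 UMIs in cycling cells and 7766 UMIs in MYOD1-negative cells at E15. With cells thinned to 4000 UMIs, 0 genes rose and 4 fell, beside 6.12% and 7.59% of all genes. SDHD and COX6A1 were among the 4, and NDUFA6, NDUFA1 and NDUFB7 were no longer called (adjusted p = 0.149, 0.231 and 0.0559). COX5A was called lower, and so was NDUFA12, which was named after its values were seen. At full depth at most 1 lower call was made without any 1 library, and without E13, E15 or E18 no higher call remained. MYOD1-high over MYOD1-negative cells gave 0 genes in either direction (edgeR and DESeq2), beside 2.15% of all genes each way. At an unadjusted p below 0.05 2 of the 76 genes differed, beside 2182 of all 13283 genes tested.

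The stages were each represented by 1 library, so that differences between them have no replicate check and no test was made. The labels name a pair of companies for library preparation and sequencing without saying which library went to which, so stage, company and pool of embryos cannot be told apart. Intervals are exact Poisson intervals at 95% and cover counting error only. Of the 80 genes, 74 had a mean of at least 20 CPM and are described here.

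In each class the summed level was highest at E18 and lowest at E23. Of the 74 genes, 46 in late MYOG cells, 52 in early MYOG cells, 45 in FAPs and 50 in PAX7 cells had their highest level at E18. The lowest level fell at E23 for 53, 50, 45 and 47 genes in the same order. The share of all genes with their highest or lowest level at these stages was not counted, so these counts are not read as a result about the set. Between E18 and E23 the log2 ratio of the summed level was -0.60 in late MYOG cells, -0.61 in early MYOG cells, -0.44 in FAPs and -0.53 in PAX7 cells, whereas the median of all genes with at least 20 CPM was 0.22, 0.22, 0.17 and 0.23. Summed mitochondrial ribosomal protein genes had -0.61, -0.67, -0.51 and -0.505 in the same order. Cytosolic ribosomal protein genes had -0.34, -0.38, -0.25 and -0.35. A fall at this step was thus not particular to the set.

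At E23 30 of the 74 genes were more than 1.5-fold below E18 in late MYOG cells, 33 in early MYOG cells, 16 in FAPs and 29 in PAX7 cells. The share of all genes of that level past the same fold was 15.4% in late MYOG cells, 17.6% in early MYOG cells, 12.7% in FAPs and 14.3% in PAX7 cells. With TMM factors the counts were 51, 55, 39 and 49 genes, and the shares of all genes were 24.8%, 26.7%, 21.5% and 23.3%, in the same order. The classes of a stage come from the same library and pool, so their common direction is not independent. In all 4 classes 67 of the 74 genes were lower at E23, beside 29.7% of the 5545 genes with at least 20 CPM in each class, and 15 were lower past 1.5-fold in each, beside 6.8%. Among the 15 were ATP5MC1, ATP5MC2, ATP5MC3, COX5B, COX6A1, NDUFB2, NDUFB4 and SDHB.

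**Figure D4:**
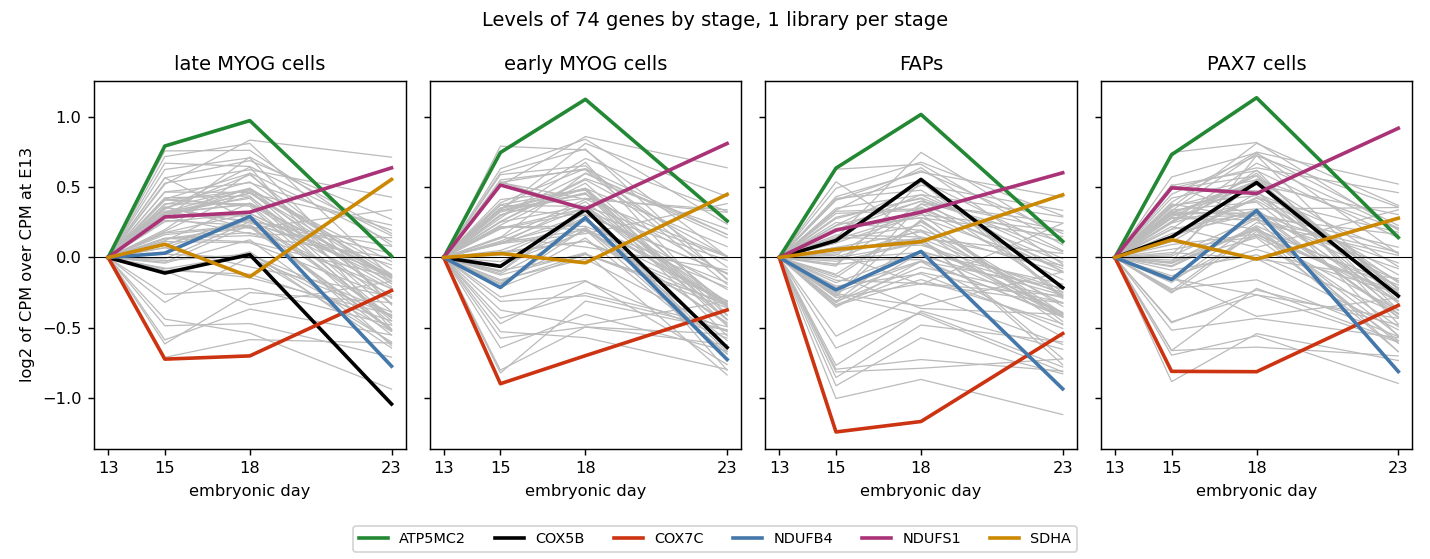
Log2 of the CPM at each stage over that at E13 (vertical axis) against embryonic day (horizontal axis) for the 74 genes in each class, 1 line per gene, with 6 genes in colour. Most lines have their peak at E18 and lie lowest at E23, while NDUFS1 and SDHA end above their start and COX7C dips at E15 and E18.

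NDUFB4 had 707, 634, 890 and 403 CPM at E13, E15, E18 and E23 in PAX7 cells, and 869, 888, 1064 and 509 CPM in late MYOG cells. ATP5MC2 had 130, 215, 285 and 143 CPM in PAX7 cells, so that its E23 level lay near that at E13. Both had their steepest drop between E18 and E23 in each class. NDUFS1, the largest core subunit of complex I, went the other way, at 49.3, 69.5, 67.6 and 93.1 CPM in PAX7 cells and 56.9, 69.5, 71.2 and 88.5 CPM in late MYOG cells. SDHA, the flavoprotein of complex II, had 109, 119, 108 and 132 CPM in PAX7 cells. These 2, with ATP5F1A, COX7C and NDUFS4, were the 5 genes of the 74 that were higher at E23 than at E18 in all 4 classes. Of the 5545 genes with at least 20 CPM in each class, 48.8% were.

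Over the whole span, E23 was set against E13 for each of the 74 genes, and several extremes were shared by classes. COX5B and ATP5ME, a small membrane subunit of the ATP synthase, had the lowest ratios in late MYOG cells, where ATP5ME had 342, 252, 236 and 179 CPM from E13 to E23. NDUFA6 and NDUFV2, of which NDUFV2 belongs to the NADH-binding module, had the lowest in early MYOG cells, with 354, 514, 450 and 203 CPM for NDUFV2. NDUFA1 and NDUFB4 had the lowest in both FAPs and PAX7 cells, and NDUFA1 stood at 203, 126, 138 and 109 CPM in PAX7 cells. NDUFS1 was among the 2 highest in each class, joined by NDUFA13 in both MYOG classes, by SDHA in FAPs and by NDUFS8, a core subunit with iron-sulfur clusters, in PAX7 cells. NDUFA13, an accessory subunit of complex I, had 82.8, 118.8, 147.6 and 135.7 CPM in late MYOG cells, and NDUFS8 had 79.1, 103.8, 132.9 and 113.5 CPM in PAX7 cells.

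Between E13 and E18 the shift was upward for most of the genes. In all 4 classes 50 of the 74 were higher at E18, beside 30% of the 5545 genes, and 3 were past 1.5-fold in each (ATP5F1B, ATP5MC2 and NDUFB7), beside 3.44%. Past that fold were 13 genes in late MYOG cells, 14 in early MYOG cells, 7 in FAPs and 13 in PAX7 cells, beside 13.9%, 14.9%, 12.3% and 15.5% of all genes at that level, so the set stood close to the background there. COX7C, a small subunit of complex IV, was the 1 gene past 1.5-fold lower in each class, beside 5.37% of the 5545 genes. It had 421, 241, 240 and 333 CPM in PAX7 cells.

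Of the 13 mitochondrial genes in the files nearly all UMIs belonged to CYTB, the cytochrome b of complex III, and only CYTB and ND6 were tested. CYTB took another course than the nuclear set. CYTB had 1303, 1278, 2691 and 4364 CPM at E13, E15, E18 and E23 in late MYOG cells, 1114, 747, 1600 and 1894 CPM in FAPs and 1376, 1219, 2401 and 2860 CPM in PAX7 cells. It was thus highest at E23 in each of these classes, the stage at which the nuclear set was lowest. The nuclear set was also divided by the counted mitochondrial UMIs, nearly all of CYTB, which leaves the other mitochondrial transcripts unmeasured. This ratio was 19.96, 22.8, 11.7 and 4.74 in late MYOG cells, 22.0, 31.4, 16.8 and 10.5 in FAPs and 17.4, 20.5, 12.02 and 6.99 in PAX7 cells. CYTB was 0.36 ± 0.12 higher in late MYOG than in PAX7 cells and 0.40 lower in FAPs (log2 fold change -0.40 ± 0.12; edgeR adjusted p = 0.0259 and 0.0178), and in late MYOG cells at E13 it was not above PAX7 cells.

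**Figure D5:**
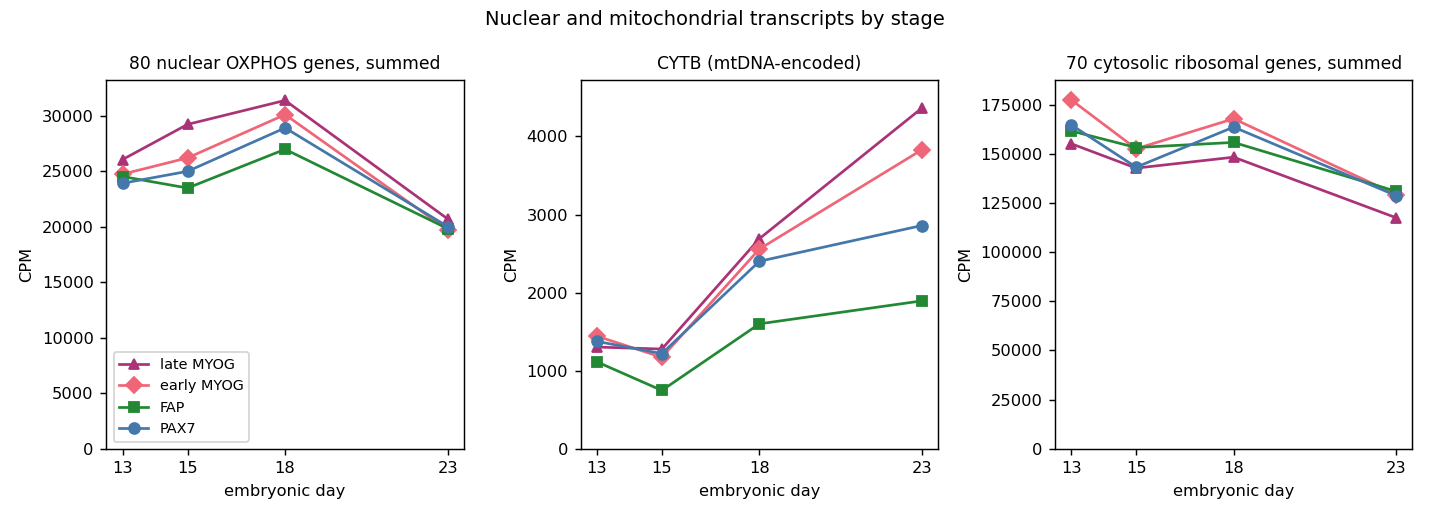
CPM (vertical axes, from 0) against embryonic day in each class of cells, for the summed 80 nuclear genes, for CYTB and for the summed cytosolic ribosomal protein genes. From E18 to E23 the nuclear and the ribosomal sums fall and CYTB rises in each class, to 4364 CPM in late MYOG cells and 2860 CPM in PAX7 cells.

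Genes that serve the same system were read from lists in late MYOG over PAX7 cells (edgeR, adjusted p below 0.05). Of all genes tested, 25.8% rose and 26.0% fell in this comparison. Of 46 assembly factors 25 rose and 2 fell, with COX17, the copper chaperone of complex IV, at 0.57 ± 0.10 (adjusted p = 0.00056) and SURF1 at 0.49 ± 0.12 (adjusted p = 0.00419). Of 14 carriers and other chain genes 8 rose and 2 fell. SLC25A4, the adenine nucleotide exchanger of muscle, had 169, 235, 213 and 161 CPM in late MYOG cells and 19.8, 26.6, 23.3 and 25.5 CPM in PAX7 cells, a log2 fold change of 3.19 ± 0.18 (adjusted p = 4.5e-07), while its relative SLC25A5 fell by 0.29 ± 0.09 (adjusted p = 0.0217). VDAC1, a pore of the outer membrane, rose by 1.24 ± 0.16, and CYC1, the cytochrome c1 of complex III, fell by 0.21 ± 0.06.

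Enzymes upstream of the chain were mixed in the same comparison, in which 25.8% of all genes rose and 26.0% fell. In the tricarboxylic acid cycle and pyruvate dehydrogenase list 5 of 17 rose and 3 fell, with IDH3B at 0.55 ± 0.08 and IDH3A, another subunit of the same enzyme, at -0.39 ± 0.12. All 16 tested glycolysis genes passed the test, 6 higher and 10 lower, with a median of -0.77. PFKM, the muscle form of phosphofructokinase, had 36.9, 40.9, 36.4 and 67.1 CPM in late MYOG cells and 0.87, 1.49, 0.40 and 1.28 CPM in PAX7 cells, whereas PKM, the last enzyme of the pathway, had 159, 136, 173 and 239 CPM in late MYOG cells and 322, 265, 426 and 675 CPM in PAX7 cells. Of 17 biogenesis factors 3 rose and 1 fell, with PPARA at 1.29 ± 0.17 and NRF1 at 0.37 ± 0.11, and PPARGC1A, the coactivator of mitochondrial biogenesis, at -0.04 (adjusted p = 0.888). Mitochondrial ribosomal proteins had 28 of 72 higher and 4 lower, and cytosolic ribosomal proteins 8 of 69 higher and 2 lower. The higher calls in the tricarboxylic acid cycle list stood near the share of all genes. Those in the biogenesis and cytosolic ribosomal lists lay below it. Genes of the stress response (HMOX1, ATF3 and others) moved too, 5 of 7 higher, with a summed 5404 CPM at E13 and 127 to 317 CPM at the later stages in late MYOG cells, against 2383 and 118 to 174 CPM in PAX7 cells, and their part in the result was not tested.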

How the data were processed

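Raw UMI counts per gene and barcode were used as deposited. Per the labels the authors made these counts from 3′ droplet libraries with Cell Ranger 7.1.0, which aligns with STAR, whereas the file headers name version 9.0.0. All 25487 gene symbols, the 80 of the set included, were found in the annotation of an assembly that the methods do not name, so no coordinates are given. Values are UMI counts and were not scaled by gene length. Each stage has 1 library, each class of cells occurs in each library, and the library served as replicate for comparisons between classes.

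The limits of the study were applied to barcodes, namely 300 to 6500 detected genes, 1000 to 50000 UMIs in total and a mitochondrial share of 20% or less. The median mitochondrial share was 0.115% to 0.285% per library, nearly all of it CYTB, so this last limit hardly acted here. The study took its mitochondrial genes from the Bean goose genome, so its limit may have removed other cells. The highest doublet scores of scanpy 1.11.5 were removed at 0.8% per 1000 barcodes (986 to 2041 barcodes per library). Of the retained cells 1955 to 6383 per library met no gate. UMIs were summed per class and library and fitted with edgeR 4.0.16 in R 4.3.3 (TMM, filterByExpr, quasi-likelihood test, Benjamini-Hochberg adjustment over all genes tested, threshold 0.05), with the library as a block. The SE is the absolute log2 fold change divided by the square root of F. The 16 sums of the 4 classes shared one fit, and so did the 12 sums of the 3 PAX7 substates. All classes within 1 library stem from 1 pool of embryos, and after removal of the class means same-library sums correlated at 0.25 to 0.68 (classes) and 0.62 to 0.85 (substates) across genes. Pools of embryos are the replicates, at different stages. With the library as a block, p-values measure how far differences between classes varied over these 4 libraries, with all classes of a fit pooled. Stages were compared without a test, past 1.5-fold among genes averaging 20 CPM or more in the class. Scripts were tested on simulated counts.

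Named genes are the isoforms of one subunit, up to 4 genes called highest and 4 lowest per comparison, the most abundant gene of each complex and the 2 highest and 2 lowest E23 over E13 ratios per class; other genes come from the fixed lists, and respiratory subunits outside the rule (ATP5F1B, COX7C and those named because a count of 5 or fewer was broken down) were named after their values were seen. The genes, gates and lists were chosen with earlier results of these data known. Alternatives were DESeq2 1.42.0, library totals, no low-count filter, no block, each library left out, doublets kept, cells thinned to 4000 UMIs, cycling cells left out, wider gates, another denominator and means over cells; TMM factors for the summed level and the removal of cells under 80000 CPM of ribosomal protein genes were added after seeing the data.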

Additional observations from a re-analysis of the deposited data

Results flagged for a closer look

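Ratios between classes were compared over the 4 libraries for each abundant or named gene and each sum, and 13 of 246 groups of 4 ratios had 1 library far from the others by Dixon's criterion, which chance gives in about 1 in 20 groups. In late MYOG over PAX7 cells, the COX7B ratio was 1.2098 at E15 and 1.0498 to 1.0605 in the other libraries, the NDUFB10 ratio 1.4667 at E23 and 1.2004 to 1.2146 in the others, and the summed complex I ratio 1.1866 at E15 and 1.1212 to 1.1302 in the others. In late over early MYOG cells, the summed ratio of all 80 genes was 1.1151 at E15 and 1.0425 to 1.0533 in the others, that of complex II was 0.9187 at E18 and 0.9983 to 1.0046 in the others, and the NDUFA6 ratio was 1.2544 at E23 and 1.099 to 1.1072 in the others. In early MYOG over PAX7 cells, E13 stood apart for COX4I1, at 1.115 with 1.0035 to 1.0212 in the others, and for COX5A, at 1.0385 with 0.9995 to 1.0042 in the others. Inside the PAX7 gate, cycling over MYOD1-negative cells had a COX6B1 ratio of 0.944 at E23 and 0.9600 to 0.9604 in the others, and an NDUFA4 ratio of 1.0602 at E15 and 0.928 to 0.9401 in the others. MYOD1-high over MYOD1-negative cells had an ATP5F1A ratio of 0.9153 at E18 and 1.0369 to 1.0592 in the others, a COX5A ratio of 1.0539 at E15 and 0.9688 to 0.9788 in the others, and an NDUFV2 ratio of 0.9662 at E23 and 1.2061 to 1.2286 in the others.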

How the results depend on the processing

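Directions were more stable than counts of calls. The share of all genes called also moved where it was given above, on library totals and with 1 library left out. For the counts here and in the next paragraphs that share is mostly not given. They therefore describe the dependence on processing and are not read as results about the set. ATP5F1A, COX5B, COX6A2 and COX7A1 in late MYOG over PAX7 cells, COX6A2 and ATP5F1A in late over early MYOG cells, and COX7A1 and COX7A2L in FAPs over PAX7 cells passed the test under every alternative run for them. For COX6A2, which had few UMIs and was admitted through the late MYOG sums, this is not separate support for a change. On library totals alone the genes called higher and lower were 27 and 7 in late MYOG over PAX7 cells, 16 and 3 in late over early MYOG cells and 9 and 29 in FAPs over PAX7 cells, with 4 higher in early MYOG and 3 higher in cycling cells. With TMM factors the summed ratio became 1.2243 for late MYOG over PAX7 cells, 1.2139 for late over early MYOG cells and 1.0708 for FAPs over PAX7 cells, against 0.9723 on library totals, the 1 ratio that turned round. The same factors raised the counts past 1.5-fold lower at E23 than at E18 to 51 in late MYOG cells, 55 in early MYOG cells, 39 in FAPs and 49 in PAX7 cells. DESeq2 called 2 lower in late MYOG over PAX7 cells, 6 higher and 1 lower in early MYOG over PAX7 cells, 1 lower in late over early MYOG cells, 24 higher in FAPs and 7 lower in cycling cells. Without a low-count filter early MYOG cells had 0 higher, FAPs 5 lower and cycling cells 2 higher and 1 lower. With doublets kept, 3 were lower in late MYOG over PAX7 cells, 1 higher in early MYOG over PAX7 cells and 24 higher in late over early MYOG cells. Thinning to equal depth gave 10 higher in early MYOG cells, where the summed ratio was 1.0577, 17 higher in late over early MYOG cells, 7 higher and 16 lower in FAPs, 0 higher in cycling cells and 1 higher in MYOD1-high cells. Leaving out cycling cells gave 4 higher in early MYOG cells, and leaving out cells low in ribosomal protein RNA, an alternative added after seeing the data, gave 1 lower there and 8 lower in cycling cells. The cause was not tested in any of these cases.

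Leaving out 1 library at a time gave 28 to 51 higher and 1 to 2 lower in late MYOG over PAX7 cells, 0 to 2 higher and 0 to 1 lower in early MYOG over PAX7 cells, 14 to 34 higher and 0 to 1 lower in late over early MYOG cells, 7 to 10 higher and 2 to 9 lower in FAPs over PAX7 cells, and 0 to 2 higher and 0 to 1 lower in cycling cells.

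Without the replicate block, which leaves out that the classes are paired within each library, 6 genes were called higher and 0 lower in late MYOG over PAX7 cells, 0 higher in early MYOG over PAX7 cells, 2 higher in late over early MYOG cells, 1 higher and 1 lower in FAPs over PAX7 cells, and 0 in either direction in cycling cells.

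COX6A2 and NDUFA4L2 rest on a few UMIs per sum, and the 2 genes at or near 0 counts could not be tested. The cause of these low counts was not tested. The promoter motif description was not run.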

Other observations

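In FAPs over PAX7 cells, several lists around the respiratory chain held genes that changed. Of 72 mitochondrial ribosomal protein genes 36 rose and 5 fell, of 69 cytosolic ribosomal protein genes 23 rose and 3 fell, of 16 glycolysis genes 9 rose and 2 fell, of 46 assembly factors 11 rose and 6 fell, of 14 carriers and other chain genes 4 rose and 1 fell, and of 17 genes of the tricarboxylic acid cycle list 4 rose and 0 fell (edgeR; 8 of the 17 had an unadjusted p below 0.05, beside 7647 of all 15004 genes), beside 22.2% and 21.2% of all genes. SLC25A5, an adenine nucleotide exchanger, was 1.01 ± 0.09 higher on the log2 scale in FAPs (adjusted p = 1.03e-05), and MDH2, the malate dehydrogenase of mitochondria, 0.70 ± 0.08 higher (adjusted p = 5.27e-05). PKM and PGK1, which fell in late MYOG cells, were 0.78 ± 0.13 and 0.59 ± 0.12 higher in FAPs (adjusted p = 0.000526 and 0.00192), against the same PAX7 sums. The members of these lists were not tested against the respiratory subunits. Higher calls among assembly factors and in the tricarboxylic acid cycle list stood near the share of all genes. All these counts rest on TMM. In CPM the mean summed ratio was 1.005 for cytosolic ribosomal protein genes and 0.9605 for assembly factors, against 1.109 and 1.0575 with TMM. For mitochondrial ribosomal protein genes, glycolysis, carriers and the tricarboxylic acid cycle list it was 1.048, 1.285, 1.098 and 1.141 in CPM.

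In cycling over MYOD1-negative PAX7 cells, 0 of 69 cytosolic ribosomal protein genes rose and 18 fell, while 12 of 72 mitochondrial ribosomal protein genes rose and 1 fell, beside 8.71% and 9.44% of all genes (edgeR). CYTB fell by 0.34 ± 0.08 (adjusted p = 0.0109). The assembly factor NDUFAF4 of complex I was 0.58 ± 0.11 higher (adjusted p = 0.00403), and TFAM, which packages and transcribes mitochondrial DNA, 0.21 ± 0.06 higher (adjusted p = 0.0451). The depth of cycling cells was higher than that of MYOD1-negative cells in each library. With cells thinned to 4000 UMIs, 0 cytosolic ribosomal protein genes rose and 32 fell, and 2 mitochondrial ribosomal protein genes rose and 0 fell. CYTB at -0.23, NDUFAF4 at 0.44 and TFAM at 0.18 then did not pass the test (adjusted p = 0.0663, 0.168 and 0.198).

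A minority of cells had little of the set. In the 4 libraries 144, 357, 170 and 270 retained cells, in the order E13, E15, E18 and E23, had less than 10000 CPM of the 80 genes. Their median depth was 1990.5 to 2804.5 UMIs, against 7976 to 10790.5 UMIs in the other cells, and their ribosomal protein transcripts were also low, at medians of 32308 to 47718 CPM against 125530 to 171582 CPM. At E15 such cells were 4.4% of PAX7 cells, 4.5% of FAPs, 2.2% of early MYOG cells and 0.36% of late MYOG cells.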
